A study of Arabidopsis thaliana with 4 samples.

Results

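The genes described here encode enzymes of photosynthetic carbon fixation and of starch synthesis in the plastid: RCA, AT1G56190, SBPASE, PRK and APL3. They were chosen by name, with earlier results of these data known, and each was matched to its only single-gene probe set. That gave 5 genes out of 13356 measured by name, on arrays of 22746 probe sets. The material was immature inflorescences of Arabidopsis thaliana, ecotype Ler-0, from the primary bolts of plants aged 5 weeks. Plants grew at 20 to 22 °C with 16 h of light and 8 h of dark a day, and all inflorescences were cut 11 h into the light period. The T0 group (2 arrays) was frozen at once, and the T24 group (2 arrays) was kept for 24 h at 21 °C in a closed black 2 L box, on paper wetted with 50 mL of water. Each time point pooled inflorescences from 10 plants. The titles call the replicates biological, but the labels do not say whether each had its own pool, so p-values cover only the spread between these arrays. Both groups share the genotype and the hour of the day at which tissue was frozen. Cutting, dark, the loss of supply from the plant and the passage of time go together in T24 and cannot be told apart.

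In the Calvin cycle, Rubisco binds CO2 to a sugar bisphosphate, the product is phosphorylated and reduced to triose phosphate, and most of the triose phosphate is used to rebuild the acceptor. The carbon that leaves the rebuilding part can be turned to starch inside the plastid, where ADP-glucose pyrophosphorylase makes the sugar nucleotide that starch synthases use. In green parts of flowers, such as young sepals, the cycle runs in the light, and several of its enzymes are switched on by thioredoxins that carry electrons from the light reactions. In plants kept in the dark, many transcripts of carbon fixation are known to decline.

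The arrays were much alike within groups, with correlations over probe sets of 0.954 at T0 and 0.961 at T24, against 0.839 to 0.873 between groups. Values are log2 signals, and a change is T24 minus T0 with its standard error (SE) from limma. In limma 3010 of the 22746 probe sets (13.2%) had an adjusted p under 0.05. Lower at T24 were 1556 of these, 6.84% of all probe sets and 51.7% of the calls (41.8% of the calls with each array centred on its median, which raised all changes by 0.16). The median change over all probe sets was 0.00. The labelled tissue could be checked only in part. Measured here means matched by name to a single-gene probe set. The 8730 unnamed probe sets and the 503 with several genes were not matched, so an unmeasured gene may still be on the array. Of 12 floral organ identity genes 1 was measured, the meristem and petal gene UFO. Its signal was 3.98 to 4.20 on the 4 arrays, under the value of 5 below which signals are taken here as near the background. The tapetum genes A9 (AT5G07230), at 7.63 to 12.00, and SWEET8, at 8.87 to 10.27, had clear signal, as had the ovule and carpel gene SPT, at 6.72 to 8.49. The other measured genes of these lists were weaker: AMS of the tapetum at 5.44 to 6.15 and INO of the ovule at 4.97 to 6.42. The root hair genes EXPA7 and EXPA18 stayed between 3.63 and 4.58.

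Of the 5 genes, 4 fell after 24 h, and PRK was lower without passing the test. SBPASE kept 15.6% of its T0 level, AT1G56190 19.5%, APL3 24.5% and RCA 34.0%, and PRK stood at 52.8%. The value of APL3 is approximate, since both its T24 signals lay under 5, near the background. The background for falls is the 6.84% of probe sets given above. For all 5 genes both T24 arrays lay below both T0 arrays, as they did for 30% of all probe sets. Without either T0 array or either T24 array, left out singly, the 4 calls were lost, as were those of all probe sets: limma's adjusted p for the 4 genes then lay between 0.0553 and 0.177. Because the arrays measured whole inflorescences, fewer cells of a type and less RNA per cell cannot be told apart.

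**Figure D1:**
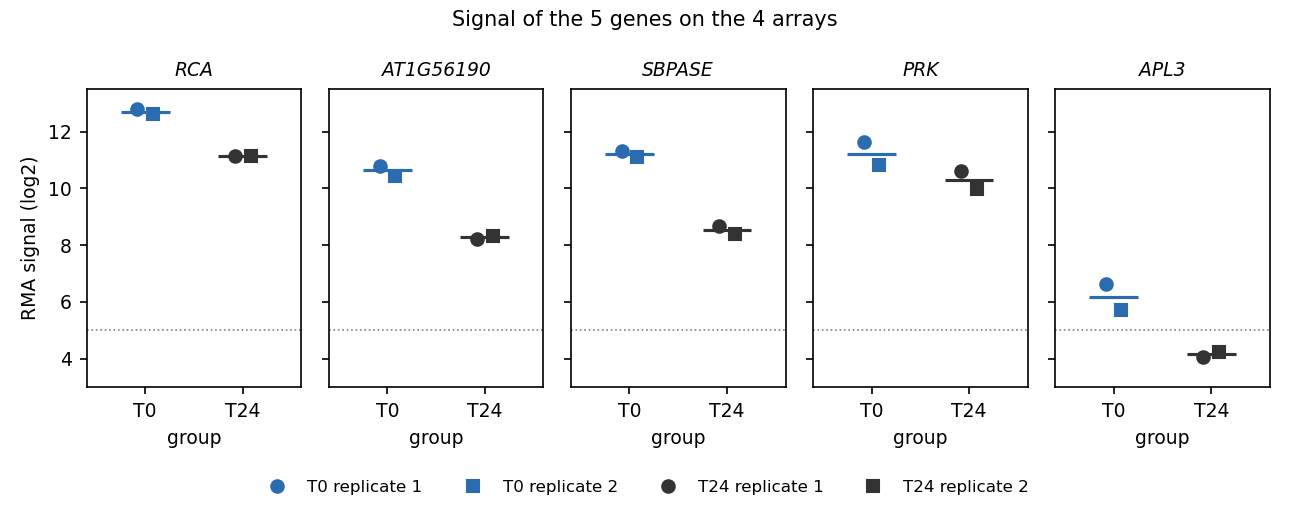
RMA signal on the log2 scale (vertical axis) of RCA, AT1G56190, SBPASE, PRK and APL3 at T0 and T24, with 1 point per array, circles for replicate 1, squares for replicate 2 and a bar for the group mean. The dotted line is at 5, below which signals are taken as near the background; in each of the 5 panels both T24 points lie below both T0 points, and in the APL3 panel both lie below 5.

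RCA encodes Rubisco activase, the ATP-driven chaperone that frees Rubisco of bound sugar phosphates. Its signal was 12.78 and 12.62 on the T0 arrays and 11.14 on each T24 array. The T0 arrays were both high and close together, and the T24 arrays were almost identical (SD 0.0038, n = 2), a smaller spread than that of all but 0.715% of the 14678 probe sets with a mean of at least 5. RCA fell by 1.56 ± 0.18 (SE) or 2.94-fold, with an adjusted p of 0.0209 in limma. The interval of the level kept was 24.1% to 48.0% (95%, from the limma fit). Setting each T24 array over each T0 array gave 32.2% to 36.0%, the narrowest such range of the 5 genes.

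AT1G56190 encodes a plastid phosphoglycerate kinase, listed as PGK2. The enzyme phosphorylates 3-phosphoglycerate with ATP ahead of the reduction step and also runs in plastid glycolysis. Which of these uses the product of AT1G56190 serves in the inflorescence was not tested. The signal of the gene was 10.80 and 10.45 at T0 and 8.21 and 8.32 at T24. Both T24 arrays were low, and the groups were separated by far more than the spread within either. The gene fell by 2.36 ± 0.21 (SE), a 5.13-fold decrease with an adjusted p of 0.0163 in limma. The level kept was 19.5%, with an interval of 12.9% to 29.3% and pairings of arrays from 16.6% to 22.9%. The plastid kinase has a close copy, PGK1, which was not analysed here, and without probe sequences the share of the signal that comes from that copy is uncertain.

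SBPASE encodes sedoheptulose-1,7-bisphosphatase, which commits carbon to the rebuilding of the Rubisco acceptor and is one of the enzymes activated by thioredoxin. Its signal was 11.31 and 11.09 at T0 and 8.67 and 8.38 at T24. The 2 groups stood far apart, with SDs of 0.16 and 0.21 (n = 2 each). SBPASE fell by 2.68 ± 0.22 (SE) or 6.39-fold (adjusted p = 0.0157 in limma), the largest fall of the 5. Only 1.55% of all probe sets had a lower change. The level kept had an interval of 10.4% to 23.6%, and the pairings of arrays ran from 13.1% to 18.7%.

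PRK encodes phosphoribulokinase, the last step of the rebuilding part, which uses ATP to make ribulose-1,5-bisphosphate, and which is held inactive in the dark in a complex with CP12 and glyceraldehyde-3-phosphate dehydrogenase. Its signal was 11.62 and 10.81 at T0 and 10.62 and 9.97 at T24. The lower T0 array and the higher T24 array were close together, and the replicate 1 array was the higher one in both groups. The change was -0.92 ± 0.40 (SE), with an adjusted p of 0.23 in limma, which did not pass. The interval of the level kept, 24.4% to 114%, spans no change as well as a fall as large as that of APL3. Pairings of arrays ran from 31.8% to 87.4%, the widest range of the 5 genes. Arrays of the same replicate number were closer, at 49.8% for replicate 1 and 55.9% for replicate 2, though no label pairs them. The SDs of 0.58 at T0 and 0.46 at T24 were larger than those of 77.1% and 73.7% of the probe sets with a mean of at least 5.

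APL3 encodes a large, regulatory subunit of ADP-glucose pyrophosphorylase, the enzyme of the first committed step of starch synthesis, and is known as a sugar-inducible form. Its signal was 6.64 and 5.71 at T0 and 4.07 and 4.22 at T24. The T0 arrays were far apart (SD 0.66, n = 2), and both T24 arrays lay under 5, near the background. APL3 fell by 2.03 ± 0.37 (SE) or 4.08-fold, with an adjusted p of 0.0452 in limma, the closest to the threshold of the 4 that passed. The call was lost with quantile normalization (adjusted p = 0.054 in limma) and with median centring (adjusted p = 0.0572). The level kept had an interval of 12.0% to 50.2% and pairings of arrays from 16.8% to 35.8%. Those ends were the arrays of the same number, 16.8% for replicate 1 and 35.8% for replicate 2. With T24 near the background a larger fall would be compressed.

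**Figure D2:**
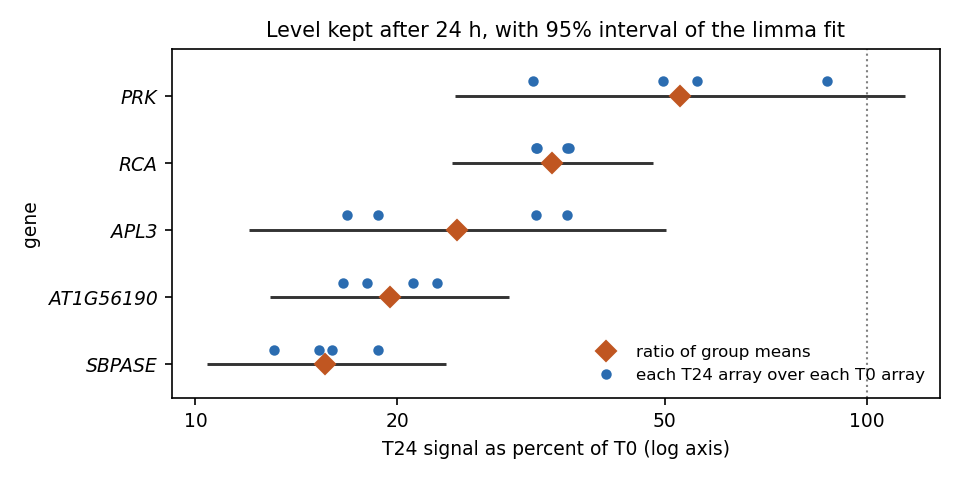
T24 signal as a percent of T0 (horizontal log axis) for the 5 genes: the diamond is the value from the group means of log2 signals, the line its 95% interval in limma, and each small circle 1 of the 4 ratios of a T24 array to a T0 array. The lines of SBPASE, AT1G56190, APL3 and RCA end below 100%, and that of PRK runs from 24.4% to 114%.

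The order of the level kept was SBPASE, AT1G56190, APL3, RCA and PRK, from least to most. Each neighbour in this order had an interval that overlapped the next, so the order is that of the point values. The place of APL3, and its gaps to the other genes, are approximate, since both its T24 signals were near the background. The difference in change was set out for all 10 pairs of the 5 genes, from the difference of their log2 signals on each array. With 2 arrays against 2, an exact two-sided permutation test cannot give a p under 0.333, and 9 of the 10 pairs were at that value (0.37 after Benjamini-Hochberg adjustment over the 10). The change of SBPASE minus that of PRK was -1.75 (-2.22 to -1.28 over the pairings of arrays), the widest gap of the 10, between enzymes that both act in rebuilding the acceptor. RCA minus SBPASE stood at 1.12 (0.93 to 1.31). For AT1G56190 minus SBPASE the gap was 0.32 (0.05 to 0.58), where the SEs of the 2 changes were 0.21 and 0.22. RCA and PRK were the pair whose groups overlapped, with RCA minus PRK at -0.63 (-1.29 to 0.02) and an exact p of 0.667.

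Other genes of the same pathways were few: 5 of 26 listed Calvin cycle genes were measured by name, of which 4 are described above. The fifth, AT5G64380, a plastid fructose-bisphosphatase isoform, was at 7.38 and 7.11 at T0 and 7.34 and 7.70 at T24. Its groups overlapped, and its change was 0.28 ± 0.23 (SE, adjusted p = 0.527 in limma). The list thus had 3 falls, 0 rises and 2 genes without a call. Its median change of -1.56, beside 0.00 over all probe sets, is that of RCA and adds nothing to the values above, since 4 of the 5 genes are those chosen by name. Genes of Rubisco subunits, of plastid aldolase and of plastid glyceraldehyde-3-phosphate dehydrogenase were not analysed here.

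In starch synthesis 4 of 19 listed genes were measured, and 2 fell. APL4, another large subunit of ADP-glucose pyrophosphorylase and the closest relative of APL3, was at 7.26 and 6.75 on the T0 arrays and at 3.49 and 3.55 on the T24 arrays. It fell by 3.49 ± 0.25 (SE, adjusted p = 0.0149 in limma) as measured. Both large-subunit genes ended near the background, where the size of a fall is approximate, so no level kept is given for APL4. The branching enzyme SBE2.2, which forms the branch points of amylopectin, had a change of -1.02 ± 0.41 (SE) with an adjusted p of 0.196 in limma. AT5G39790, a protein known to bring granule-bound starch synthase to starch, stood at -0.23 ± 0.38. The list's median change was -1.52. Both this median and the count of 2 falls include APL3, which was chosen by name, so they are no separate result.

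Starch breakdown, the opposite branch, had 3 of 22 genes measured. Over the whole table, 6907 of the 22746 probe sets had an unadjusted p under 0.05 in limma. Of the 3 genes limma called 0, and 2 reached 0.05 without adjustment. These were DPE1, the plastid enzyme that recycles maltotriose, at -1.40 ± 0.33 (adjusted p = 0.0699), and PWD, a kinase that phosphorylates glucan to open the granule, at -0.98 ± 0.23 (adjusted p = 0.0716). The alpha-amylase gene AMY1 was at 7.09 and 5.88 at T0 and 7.24 and 6.52 at T24, a change of 0.39 ± 0.52. In sucrose synthesis 2 of 10 genes were measured. The sucrose-phosphate synthase ATSPS4F fell by 2.02 ± 0.32 (SE, adjusted p = 0.0333 in limma), and the sucrose-phosphatase AT2G35840 did not pass, at -0.56 ± 0.45.

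Of 8 listed genes of the plastid thioredoxin systems, 5 were measured. NTRC, a plastid thioredoxin reductase with its own thioredoxin domain, fell by 1.48 ± 0.20 (SE, adjusted p = 0.0267 in limma), from 9.04 and 9.09 to 7.44 and 7.73. The other 4 had no call: the thioredoxins THX, TRXF2 and ATHM2 were at -1.05 ± 0.33, -0.83 ± 0.38 and -0.35 ± 0.26, and AT2G04700, the catalytic subunit of ferredoxin-thioredoxin reductase, at -0.13 ± 0.45. All 5 changes were below 0, with a median of -0.83, beside 0 over all probe sets. The groups of ATHM2 and AT2G04700 overlapped, and with each array centred on its median AT2G04700 was at 0.02.

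Photorespiration salvages the product that Rubisco makes when it binds oxygen, and 3 of its 13 listed genes were measured. AT1G11860, the T-protein of glycine decarboxylase, fell by 1.57 ± 0.21 (SE, adjusted p = 0.0268 in limma), from 11.63 and 11.31 to 9.97 and 9.84. The peroxisomal hydroxypyruvate reductase HPR had higher values at T24, 12.65 and 12.38 against 11.78 and 11.15, and did not pass (1.05 ± 0.30, adjusted p = 0.102 in limma). The glycerate kinase AT1G80380, which returns carbon to the Calvin cycle, was at 0.62 ± 0.24 (adjusted p = 0.187). In the cytosol 3 of 10 listed glycolytic genes were measured, and 1 rose: ALDH11A3, a glyceraldehyde-3-phosphate dehydrogenase that makes NADPH, by 1.19 ± 0.22 (SE, adjusted p = 0.0472 in limma, lost in 3 of 8 alternative settings). The cytosolic triosephosphate isomerase TPI was at -1.23 ± 0.38 (adjusted p = 0.123) and the dehydrogenase GAPC2 at 0.21 ± 0.30. Rises made up 6.39% of all probe sets.

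**Figure D3:**
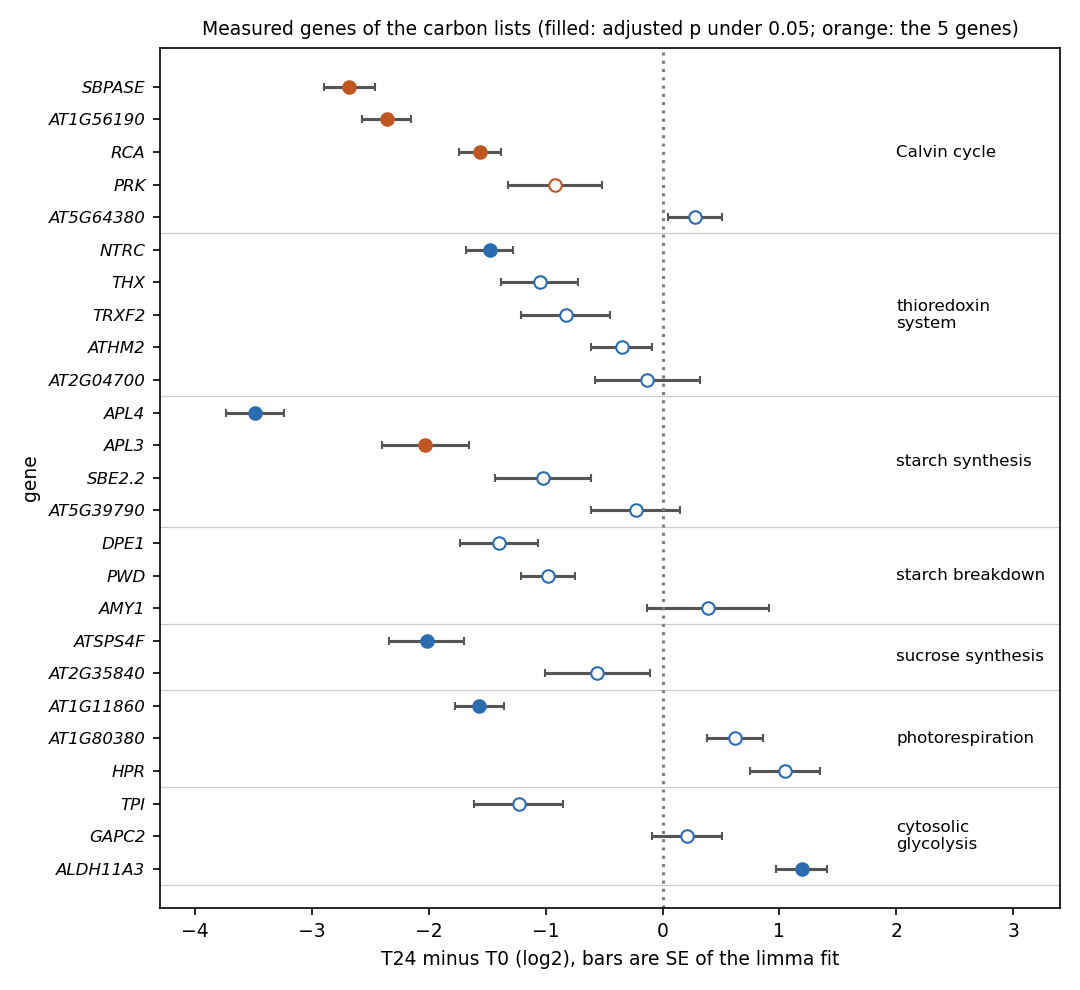
T24 minus T0 on the log2 scale (horizontal axis, bars are the SE of the limma fit) for each measured gene of 7 lists of carbon metabolism, filled where the adjusted p was under 0.05 and orange for RCA, AT1G56190, SBPASE, PRK and APL3. The 3 filled Calvin cycle genes lie between -2.68 and -1.56, and the open ones, PRK and AT5G64380, lie at -0.92 and 0.28.

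Markers of other cells and tissues were compared beside these falls. Of 14 listed antenna genes of green tissue 3 were measured, and they moved in different directions: LHCB4.3 fell by 3.56 ± 0.29, LHCB4.2 rose by 1.61 ± 0.28, and LHCB4.1 was at 0.61 ± 0.32. The summed signal of these 3 on the linear scale was 5609 to 8644 at T0 and 8138 to 9898 at T24. Both measured pollen genes of 6 listed rose, the pectate lyase AT59 by 4.20 ± 0.23 and the sperm histone MGH3 by 2.61 ± 0.42, and their summed linear signal went from 102.4 and 158.5 to 1795 and 1822. The 3 measured tapetum genes of 7 and the 2 ovule and carpel genes of 8 gave limma 0 calls. Without adjustment 1 (SWEET8) and 0 reached 0.05, beside 6907 of all 22746 probe sets. They moved in different directions: in the tapetum list SWEET8 was at 0.93 ± 0.30, AMS at -0.24 ± 0.29 and A9 at -1.95 ± 1.23. In the ovule and carpel list SPT was at 0.84 ± 0.50 and INO at -0.77 ± 0.38. Summed linear signals of the tapetum and of the ovule and carpel genes were 1767 to 4637 and 158.4 to 316.5 at T0. At T24 they were 1189 to 2723 and 248.6 to 409.7. A9 differed between replicates in both groups, at 12.00 and 10.00 at T0 and at 10.48 and 7.63 at T24, with replicate 1 the higher array each time. The part of pollen development or of other changes in tissue make-up in the falls of the carbon genes was not tested.

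The genes whose pattern over the 4 arrays was nearest to each of the 5 were taken by Euclidean distance between log2 signals centred on each gene's mean, among genes with a symbol and a mean of at least 5. Nearest to SBPASE was BGLU44, a beta-glucosidase, at a distance of 0.056, with signals of 10.46 and 10.30 at T0 and 7.82 and 7.56 at T24. Next to it were CRT1b, a calreticulin of the endoplasmic reticulum (0.25), and IQD30, a calmodulin-binding protein (0.33). For AT1G56190 they were UGT74B1, a glucosyltransferase of glucosinolate synthesis (0.24), CRR21, a chloroplast RNA editing factor (0.24), and TAAC, which carries ATP across the thylakoid membrane (0.25). CRR21 and TAAC are both proteins of the chloroplast, and their changes of -2.30 ± 0.20 and -2.21 ± 0.18 follow from the choice by likeness.

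For RCA the nearest were BLT, a trichome branching gene (0.19), the glycosyltransferase UGT76E11 (0.20) and Y14, of the exon junction complex (0.21). For PRK they were SP1L5, a microtubule-associated protein (0.13), the thioredoxin TRXF2 (0.14) and the subtilisin-like protease ARA12 (0.16). TRXF2 had 8.81 and 8.00 at T0 and 7.83 and 7.32 at T24, with replicate 1 the higher array in both groups, which the choice by likeness to PRK fixes. For APL3 they were ATSPS4F, the sucrose-phosphate synthase described above (0.23), the peptide deformylase PDF1B of organelles (0.35) and ENGase85B, a glycosidase of N-glycans (0.42). ATSPS4F had 7.44 and 6.69 at T0, then 5.10 and 4.98, and the replicate 1 array was the higher one at harvest, as it was for APL3. These likenesses rest on 4 arrays and were given no test, and the size of these genes' changes is no separate result.

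**Figure D4:**
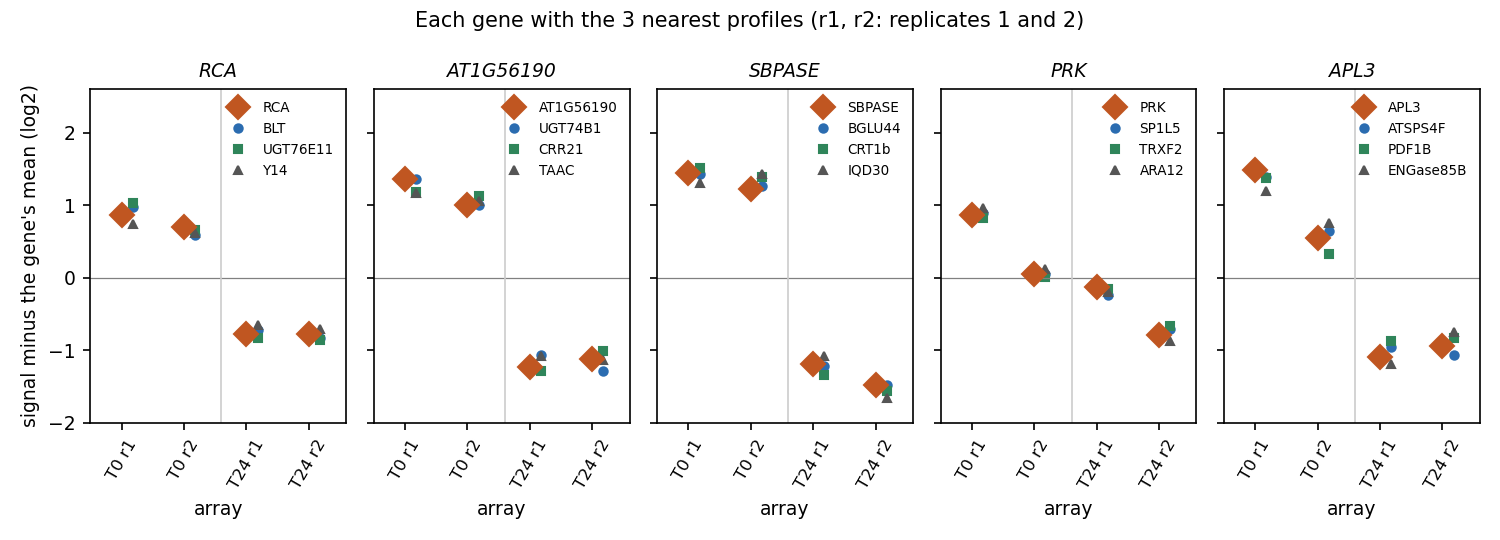
Signal minus each gene's mean over the 4 arrays (log2, vertical axis) on each array for RCA, AT1G56190, SBPASE, PRK and APL3 (diamonds) and, set slightly to the right, the 3 genes with the nearest profile to each (small symbols). BGLU44 lies closest to SBPASE, at a distance of 0.056, and in the PRK panel the replicate 1 points lie above the replicate 2 points in both groups.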

How the data were processed

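RNA was measured on 4 one-colour Affymetrix arrays, and groups and replicate numbers came from the titles. The log2 values deposited by the authors for 22746 probe sets come from RMA, per the submitters' processing notes, and the log base was inferred from that tool's output and the range of 2.714 to 14.44. No detection calls exist for such values, and a mean below 5 was found for 35.5% of probe sets. Precision is limited by the 2 arrays in each group. Names came from the platform annotation (13513 with 1 gene, 503 with several and 8730 unnamed here), and 13436 were updated by gene identifier from the RefSeq table of TAIR10.1, used for names only.

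The change from T0 to T24 was fitted over the whole table with limma 3.58.1 (lmFit, eBayes) in R 4.3.3 without covariates, and p-values were adjusted over all of them by the method of Benjamini and Hochberg. An adjusted p of a gene comes from this fit unless an alternative is named beside it. The fit was tested on simulated data. The level kept is the group ratio as a percent. Named genes were the 5 genes, the 3 nearest profiles to each and every measured Calvin cycle and starch gene. From each other list up to 4 genes with the largest changes were added, but of the thioredoxin list all 5 measured genes. The 14 lists hold 171 genes. Genes and lists were chosen with earlier results of these data known. The 4 measured reference genes, among them GAPC2 of the glycolysis list, had 0 calls from limma (and 0 under 0.05 without adjustment). They served for centring as 1 of the alternatives, which were a replicate block, a trended or robust prior, 3 scalings, 2 filters and leaving out each array.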

Additional observations from a re-analysis of the deposited data

How the results depend on the processing

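Under the 8 alternatives that kept all 4 arrays, RCA, AT1G56190 and SBPASE kept their calls in all 8 and APL3 in 6, with changes of -1.64 to -1.40, -2.45 to -2.20, -2.76 to -2.52 and -2.12 to -1.87. APL3 lost its call with quantile normalization (-1.96) and median centring (-1.87), which left 1 call in the starch synthesis list each. Numbered replicates deviated alike (correlation of replicate differences 0.63 over probe sets), but no label ties a number to a batch, and 2 pairs are too few to settle it. With the replicate block 6528 probe sets passed (28.7%), against 3010, PRK (-0.92) passed at an adjusted p of 0.0304 in limma, and the starch degradation list had 1 call, DPE1 (0.0251). Of the other genes named, THX (0.0474), TRXF2 (0.044), TPI (0.0198), A9 (0.027), INO of the ovule list (0.0371), SP1L5 (0.0397), ARA12 (0.024) and PDF1B (0.047) also passed as lower and HPR (0.0328) as higher, so the thioredoxin list had 3 calls against 1. Among single-gene probe sets only, 1618 passed, fewer being tested. Leaving out each array gave 0 calls over all probe sets and in the Calvin cycle, starch synthesis and starch degradation lists (the single array left in a group then takes its spread from the other group, with 1 residual degree of freedom), while 4888 to 5942 probe sets reached 0.05 in limma without adjustment. Changes then ran from -1.63 to -1.48 for RCA, -2.53 to -2.19 for AT1G56190, -2.82 to -2.53 for SBPASE, -1.33 to -0.52 for PRK and -2.50 to -1.56 for APL3, with smallest adjusted p-values over all probe sets of 0.054 to 0.0936. Quantile normalization turned the sign of none of the 10 differences between pairs of the 5 genes. Each difference is taken within an array, where a shift of the whole array cancels, so this check is weak.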
